A study of Homo sapiens with 36 samples.

Results

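The genes of cyclin D (CCND1, CCND2, CCND3), cyclin E (CCNE1, CCNE2) and the cyclin D partners CDK4 and CDK6 are 7 of the 20007 protein-coding genes that were scored. They were taken by name, and ChIP-seq peaks within 3 kb of any of their annotated transcription start sites, together with Jun-family peaks within 100 kb, were compared between A549, a lung adenocarcinoma line, and BEAS-2B (B2B), an immortalized bronchial epithelial line. Both lines carried no label of a treatment. RNA polymerase II (pol II), H3K4me3, Med1, H3K27ac, JunB, Jun and JunD were measured in both lines, and CTCF and Rad21 were analysed here in B2B only. Each target had 2 replicates, which were merged before peaks were called, so every value below comes from 1 pooled list, no test between the lines was possible, and no replicate error can be given. Coordinates are those of hg38, the promoter window of a gene holds each base up to 3 kb from a GENCODE 44 start site of that gene, and its canonical start is that of the transcript the annotation tags as canonical. The fold enrichment of a peak is the ratio of the reads piled up at its summit to a local background. It ranks peaks within a list and is not a scale shared by the lines.

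Cyclin D proteins bind CDK4 and CDK6, and cyclin E proteins bind CDK2. The active kinases phosphorylate the RB protein, which releases E2F factors and lets a cell pass from G1 into S phase. CCND1 is a textbook target of AP-1, the dimeric factor that the Jun-family proteins form with each other or with Fos-family partners. B2B cells were immortalized with a virus whose large T antigen binds RB, and A549 cells are known to have lost CDKN2A, the gene of an inhibitor of CDK4 and CDK6. Both are limits of the lines as models of this pathway.

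As a check of the lines, an H3K4me3 promoter peak was present at 5 of 6 epithelial marker genes in A549 and at 5 of 6 in B2B, with KRT19 lacking one in both. Over all coding genes 73.8% had one in A549 and 62.8% in B2B, so the epithelial counts alone are a weak check. Of 5 blood and endothelial marker genes, 1 (PTPRC) had an H3K4me3 peak in A549 and 0 had one in B2B. The lists held from 8563 peaks (JunB in B2B) to 61225 peaks (CTCF in B2B), and the median pileup at a summit ranged from 19.0 to 107 reads. Of the 16 lists, 4 stopped before the last chromosome, so that among the 7 genes CCNE1, on chromosome 19, was not scored for Med1 in both lines and H3K27ac in A549. Some marker and pathway genes were not scored in these lists either, and their counts are given over the genes scored.

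To ask which of the 7 genes carried an active promoter in each line, the marks of promoters and enhancers were compared first. CCND3, CCNE2, CDK4 and CDK6 had pol II, H3K4me3, Med1 and H3K27ac peaks in both lines. CCND1 had all of them in both lines too, and its pol II, H3K4me3 and H3K27ac peaks covered several times more base pairs in A549. The median coding gene also had more base pairs of pol II, H3K4me3 and H3K27ac in A549, with values given below. CCND2 had H3K4me3 and H3K27ac in A549 and none of the 4 marks in B2B, and CCNE1 had a pol II peak in A549 and none in B2B.

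Counted over the genes, pol II peaks lay at 6 of 7 genes in A549, where 69.6% of coding genes had one, and at 5 of 7 in B2B, where 51.0% did. H3K4me3 peaks lay at 7 of 7 genes in A549 (73.8% of coding genes) and at 6 of 7 in B2B (62.8%). Med1 peaks lay at 5 of 6 genes in A549 (54.7%) and at 5 of 6 in B2B (61.1%), and H3K27ac peaks at 6 of 6 in A549 (73.5%) and 6 of 7 in B2B (65.0%). In B2B, CTCF peaks lay at 5 of 7 genes (50.1%) and Rad21 peaks at 7 of 7 (68.0%). These shares lay above those of coding genes in each of the 10 lists, and the members, which had from 5 to 18 annotated start sites, were not matched to other genes on that number. With canonical starts alone, the CTCF count was 2 of 7, and no share over coding genes was taken at that setting.

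**Figure D1:**
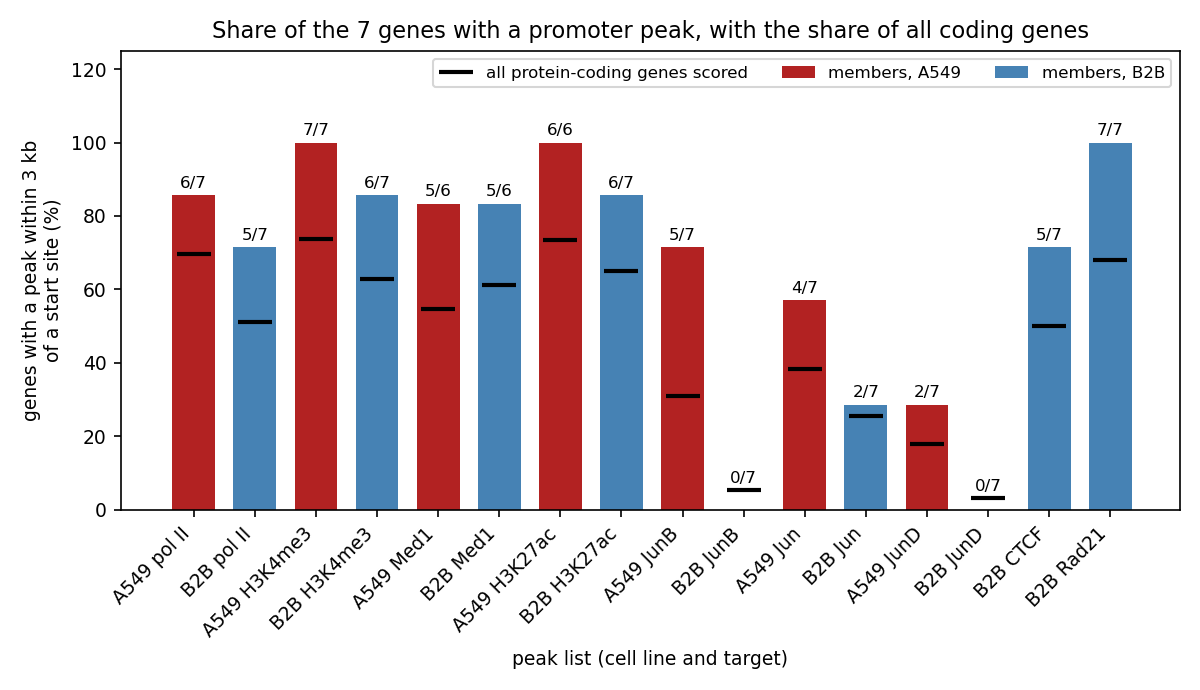
Share of the cyclin and CDK genes with a peak within 3 kb of a start site (bars, with the count above each; red A549, blue B2B) and the same share over all protein-coding genes scored (black dashes), for each of the 16 peak lists. The largest gaps between the lines are those of JunB, with 5 of 7 genes in A549 and 0 of 7 in B2B.

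CCND1 had the widest pol II, H3K4me3 and H3K27ac cover in A549 among the genes scored for each. CCND1 (ENSG00000110092.4, chr11:69641156-69654474, plus strand) encodes cyclin D1, which is often amplified in tumours. In A549, 4 pol II peaks covered 11580 bp, or 90.5%, of its promoter window, more than at 99.4% of coding genes. The strongest was a domain of 8212 bp at chr11:69640451-69648662 with a fold enrichment of 88.6. In B2B, 1 pol II peak of 282 bp with a fold enrichment of 3.93 was called in the same window. H3K4me3 covered 7031 bp in A549 and 1432 bp in B2B, and H3K27ac covered 9308 bp in A549 and 2130 bp in B2B. The median coding gene was also covered more in A549 than in B2B. It had 946 and 175 bp of pol II, 1956 and 965 bp of H3K4me3, and 1158 and 726 bp of H3K27ac. For H3K4me3 and H3K27ac, CCND1 exceeded 99.0% and 99.7% of coding genes in A549. In B2B it exceeded 56.5% for pol II, 61.9% for H3K4me3 and 88.3% for H3K27ac. Med1 was nearer between the lines, with 2598 bp in A549 and 2036 bp in B2B.

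The reads at a summit and the local background can both be solved from the deposited fold enrichment and p-value. At CCND1 the H3K4me3 summit held 182 reads over a background of 3.18 reads in A549 and 100 reads over a background of 30.6 in B2B. The pol II summit held 314 reads over 2.56 in A549 and 155 reads over 38.7 in B2B. The reads of the lines thus lay nearer to each other than the fold enrichments, and the local background was the higher of the pair in B2B for both marks. Per the study's methods the pooled reads were brought to CPM across the lines. How this acted on the pileups is not given in the sources used here, and the part of the background in the difference of covered base pairs was not tested.

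The same background stood behind the other promoters. Over the members, the solved background ranged from 1.86 to 4.25 reads for pol II in A549 and from 10.1 to 38.7 in B2B. It ranged from 2.43 to 3.89 reads for H3K4me3 in A549 and from 13.6 to 52.6 in B2B, and from 1.33 to 3.88 reads for H3K27ac in A549 and from 19.7 to 29.9 in B2B. At the members, the ranges of the lines did not overlap for any of these 3 marks. For Med1 they did, with 1.67 to 2.71 reads in A549 and 1.77 to 2.55 in B2B. No solved background was taken over other coding genes or over whole lists. Whether the higher background in B2B is particular to these promoters or common to its lists was therefore not tested.

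**Figure D2:**
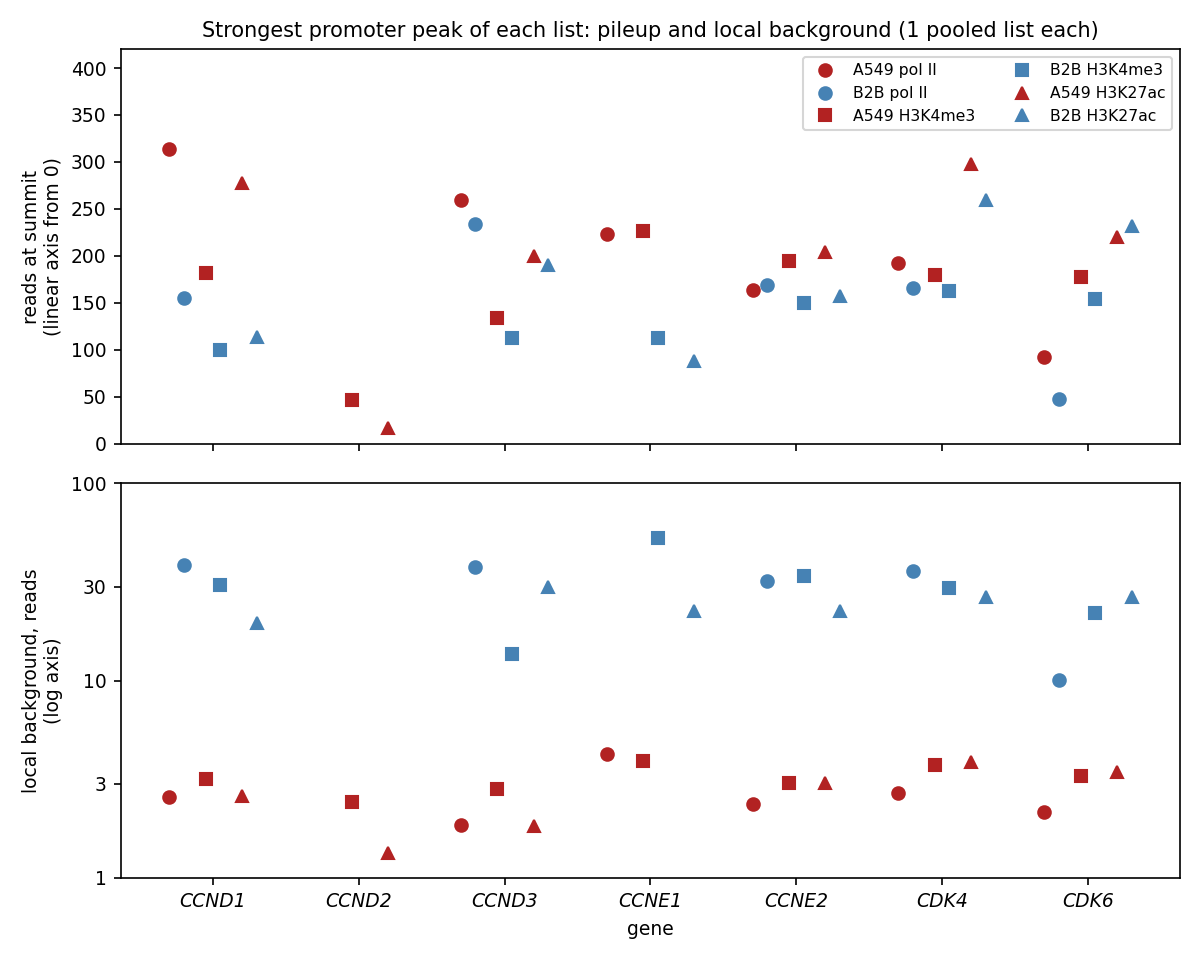
Reads at the summit of the strongest promoter peak (top, linear axis) and its local background (bottom, log axis) for pol II (circles), H3K4me3 (squares) and H3K27ac (triangles), by gene, in A549 (red) and B2B (blue); a missing point is a gene without a peak or not covered by the list. At CDK4 the H3K27ac summits hold 298 and 260 reads, while the backgrounds are 3.88 and 26.7 reads.

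CCND2 (ENSG00000118971.9, chr12:4269771-4305353, plus strand), a gene of another D-type cyclin, had no pol II and no Med1 peak within 3 kb of a start site in either line. In A549, 5 H3K4me3 peaks covered 2930 bp, and the strongest held 46 reads, the fewest of the 7 genes in that list. H3K27ac covered 1195 bp in A549 with 17 reads at its strongest summit. In B2B no peak of either mark was called there, and the reads behind a place without a peak are not in these data. The peaks that both lines shared at CCND2 were of Jun, and they lay on a CTCF and Rad21 site of B2B.

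CCND3 (ENSG00000112576.13, chr6:41934934-42050357, minus strand) encodes the remaining D-type cyclin and has 18 annotated start sites. The strongest pol II peak of both lines lay at a distal start, with summits at -108767 bp (A549, 259 reads) and -108786 bp (B2B, 234 reads) from the canonical start, where a negative distance is upstream. TAF8, a gene of a TFIID subunit, starts within 3 kb of that distal start. Within 3 kb of the canonical start of CCND3, A549 had 1 pol II peak with a fold enrichment of 27.9 that covered 2182 bp, and B2B had 0. H3K4me3 covered 3561 bp there in A549 and 1705 bp in B2B. Med1 covered 384 bp in A549 and 473 bp in B2B. The pol II call of CCND3 in B2B was therefore made at the distal start alone.

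CCNE1 (ENSG00000105173.14, chr19:29811991-29824312, plus strand), the gene of cyclin E1, carried a pol II peak of 1566 bp with 223 reads in A549 and none in B2B. H3K4me3 covered 2333 bp in A549, with 226 reads over a background of 3.89. It covered 313 bp in B2B, with 113 reads over a background of 52.6, the highest background of any member. In B2B, H3K27ac covered 629 bp, Rad21 covered 561 bp, and no CTCF peak was called. CCNE1 was thus marked by H3K4me3 in both lines, and its pol II differed between them as a call.

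CCNE2 (ENSG00000175305.18, chr8:94879770-94896678, minus strand), the gene of cyclin E2, had the larger H3K4me3 value in B2B. Its H3K4me3 peaks covered 2901 bp in A549 and 3263 bp in B2B. H3K27ac covered 2454 bp in A549 and 2422 bp in B2B, and pol II covered 2160 bp in A549 and 704 bp in B2B. The pol II summit held 164 reads in A549 and 169 reads in B2B. No Jun-family peak of either line lay within 3 kb of a CCNE2 start site, which made it the one member without any. NDUFAF6 starts within the same window.

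CDK4 (ENSG00000135446.17, chr12:57747727-57756013, minus strand) and CDK6 (ENSG00000105810.10, chr7:92604921-92836573, minus strand) encode the kinases that D-type cyclins activate, and both carried all 4 marks in both lines. At CDK4, pol II covered 2792 bp in A549 and 706 bp in B2B, H3K4me3 covered 4694 and 2437 bp, and H3K27ac covered 2860 and 2000 bp. MARCHF9 starts within the CDK4 window, and within 3 kb of the canonical CDK4 start pol II covered 2049 and 706 bp and H3K4me3 covered 3095 and 1495 bp. That narrower window still held upstream peaks in whole or in part, with A549 summits at -2674 bp (pol II) and -2788 bp (H3K4me3). Its values are therefore not free of signal from upstream of the canonical start. At CDK6, H3K4me3 covered 6657 bp in A549 and 5948 bp in B2B, and H3K27ac covered 4543 and 4529 bp. Med1 covered 1473 bp of the CDK6 window in A549 and 4261 bp in B2B, so that the Med1 value was larger in B2B. Among the 6 genes scored, Med1 covered more base pairs in B2B at CCND3, CCNE2, CDK4 and CDK6, more in A549 at CCND1, and 0 in both lines at CCND2. The median coding gene also had more Med1 cover in B2B, with 434 bp beside 221 bp in A549.

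**Figure D3:**
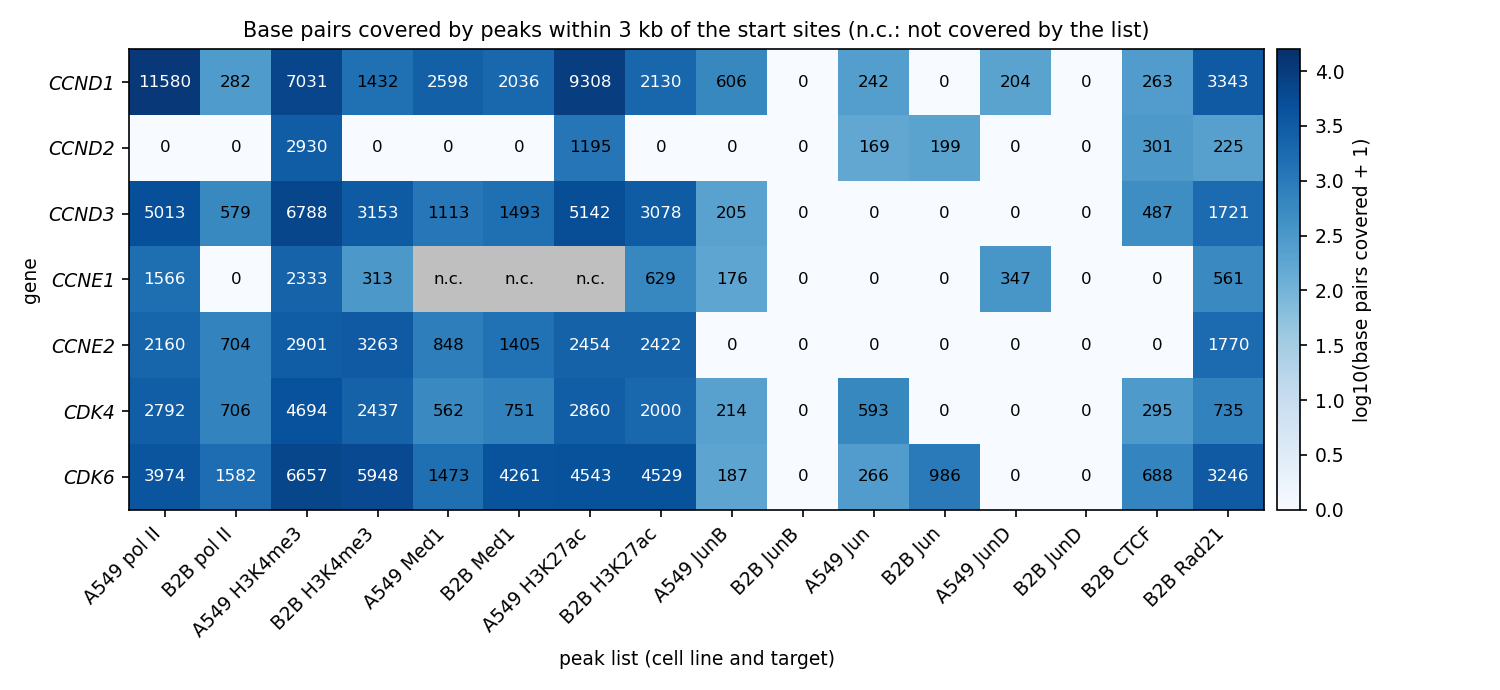
Base pairs covered by peaks within 3 kb of the start sites of each gene (rows) in each peak list (columns), with the number in each cell, colour on a log10 scale and grey for genes a list does not cover. CCND1 has the largest pol II value, 11580 bp in A549 against 282 bp in B2B, and CDK6 has the largest Med1 value, 4261 bp in B2B.

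To compare AP-1 at the promoters, the peaks of the 3 Jun-family proteins were counted. JunB peaks lay at 5 of 7 genes in A549, where 31.1% of coding genes had one, and at 0 of 7 in B2B, where 5.28% did. Jun peaks lay at 4 of 7 genes in A549 (38.2% of coding genes) and at 2 of 7 in B2B (25.4%), and JunD peaks at 2 of 7 in A549 (17.8%) and 0 of 7 in B2B (3.22%). The JunB list of A549 was longer than that of B2B, with 28068 and 8563 peaks. When both were held to 8563 peaks by −log10 p, the A549 count fell from 5 to 0, so the JunB difference at these promoters rests on the weaker peaks of the longer list. Within 1 kb of a start, or with canonical starts alone, the Jun counts were 2 in A549 and 0 in B2B, and within 1 kb the JunD count of A549 was 1. No share over coding genes was taken at these settings or in lists of equal length.

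The A549 Jun-family peaks at the promoters ranked between the 2.62nd and the 58.5th percentile of fold enrichment in their own lists. At CCND1, A549 had 2 JunB peaks with fold enrichments of 3.81 and 5.06, a Jun peak of 7.48 whose summit lay 60 bp upstream of the canonical start, and a JunD peak of 4.78. None of these ranked above the 34.9th percentile of its list, and the Jun summit held 17 reads over a background of 1.41. At CCNE1, A549 had a JunB peak of 4.41 and JunD peaks of 5.98 and 5.05. At CDK4, A549 had a JunB peak of 4.71 and Jun peaks of 7.59 and 4.98, and at CCND3 a JunB peak of 4.51. B2B had no Jun-family peak at any of these 4 promoters.

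Jun peaks of B2B lay at CCND2 and CDK6. At CDK6, 3 Jun peaks of B2B covered 986 bp. The strongest had a fold enrichment of 13.9 at chr7:92723112-92723539, with its summit 2297 bp from an internal start and 113160 bp downstream of the canonical one. At a different internal start, A549 had 1 JunB and 1 Jun peak with fold enrichments of 5.01 and 5.72, and a B2B Jun peak of 5.24 overlapped them. Within 3 kb of the canonical CDK6 start alone, no Jun-family peak was called in either line.

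The promoters of CCNE1 and CDK4 are shown because a Jun-family summit of A549 fell inside the RefSeq window from 250 bases before to 50 after a start (GRCh38.p14; the windows equal the hg38 sequence). CCND1, CCND2 and CCNE2 have no entry in that table. In the CCNE1 window, chr19:29811741-29812040 on the plus strand, capitals mark 15 bases centred on the JunD summit of A549 at position 260. In the CDK4 window, chr12:57752261-57752560 on the minus strand, capitals mark CACGTG, the E-box that MYC-family factors bind, a word looked for only after the sequence was seen.
CCNE1: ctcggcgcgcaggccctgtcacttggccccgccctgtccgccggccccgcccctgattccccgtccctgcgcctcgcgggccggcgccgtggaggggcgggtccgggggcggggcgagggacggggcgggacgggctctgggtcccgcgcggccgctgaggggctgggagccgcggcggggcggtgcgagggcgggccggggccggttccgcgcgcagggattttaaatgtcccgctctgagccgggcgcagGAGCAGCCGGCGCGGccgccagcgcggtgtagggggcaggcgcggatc
CDK4: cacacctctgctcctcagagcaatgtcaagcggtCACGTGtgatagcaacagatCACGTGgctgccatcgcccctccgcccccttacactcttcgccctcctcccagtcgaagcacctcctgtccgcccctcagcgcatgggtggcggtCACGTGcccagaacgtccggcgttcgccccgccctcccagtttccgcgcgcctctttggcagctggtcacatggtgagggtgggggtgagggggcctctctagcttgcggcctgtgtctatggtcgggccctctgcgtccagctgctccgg
The CDK4 window held 3 copies of CACGTG, and the weaker Jun summit, at position 155, fell on the last base of the third. At least 1 copy was in 8.35% of the 21613 RefSeq windows of coding genes and 3 or more copies in 0.139%. Neither window held the AP-1 motif TGAGTCA or its reverse complement TGACTCA, which 4.03% of the windows held, nor the CRE motif TGACGTCA, which 2.29% held. The stronger Jun peak at the CDK4 promoter, with a fold enrichment of 7.59, had its summit outside the printed window. It held the AP-1 motif, centred at -7 bp from its summit.

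To follow AP-1 beyond the promoters, Jun-family peaks of both lines were merged into regions, and those within 100 kb of a start were classed as shared, A549 alone or B2B alone. Around the 7 genes lay 104 such regions: 48 belonged to A549 alone, 34 to B2B alone, and the remaining 22 were shared. Over all 72011 regions of the genome, 26.5% were shared, 34.1% were A549 alone and 39.4% were B2B alone, beside 21.2%, 46.2% and 32.7% near the 7 genes. The median gene among the 7 had 14 regions, and the median coding gene had 7. By class, the medians over coding genes were 2 shared, 3 A549 alone and 2 B2B alone. Over the 7 genes they were 1, 6 and 1. The genome shares also count regions far from genes, so the medians over coding genes are the nearer comparison. At least 2 Jun-family proteins in 1 line were found at 34.6% of the regions near the 7 genes and at 35.4% of all regions, which is nearly the same share.

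CDK6 had 40 regions, more than 99.8% of coding genes, and its window was also the widest at 418297 bp. Per 100 kb of window it had 9.56 regions, more than 98.3% of coding genes, while the median coding gene had 3. Of the 40 regions, 14 were shared, 8 were A549 alone and 18 were B2B alone. CCND1 came next per 100 kb with 8.22, from 17 regions, of which 11 were A549 alone, 6 were B2B alone and 0 were shared. CCND3 also had 17 regions, with 5 shared and 6 alone in each line.

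CCNE1 had 13 regions alone in A549, 1 alone in B2B and 0 shared. CCNE2 had 4, 1 and 0, CDK4 had 5, 1 and 2, and CCND2 had 1 of each class. More regions alone in A549 than alone in B2B were found at 4 of the 7 genes, CCND1, CCNE1, CCNE2 and CDK4, beside 50.7% of coding genes. Fewer were found at 1 of 7, CDK6, beside 33.2% of coding genes. With other settings CCND3 and CCND2 also had fewer, CCND3 with 3 against 6 in lists of equal length and CCND2 with 1 against 5 within 200 kb. In lists of equal length, CCNE1 had 8 regions alone in A549 and 1 in B2B. With at least 2 proteins in 1 line, an alternative chosen after the data were seen, CCNE1 had 4 and 0. Within 50 kb, CCND1 had 10 regions alone in A549 and 0 in B2B, and no share over coding genes was taken at that distance. Counting only regions with at least 2 proteins in 1 line, within 100 kb, CCND1 had 3 and 1. Such regions made up 38.1% of all A549-alone and 9.62% of all B2B-alone regions of the genome.

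**Figure D4:**
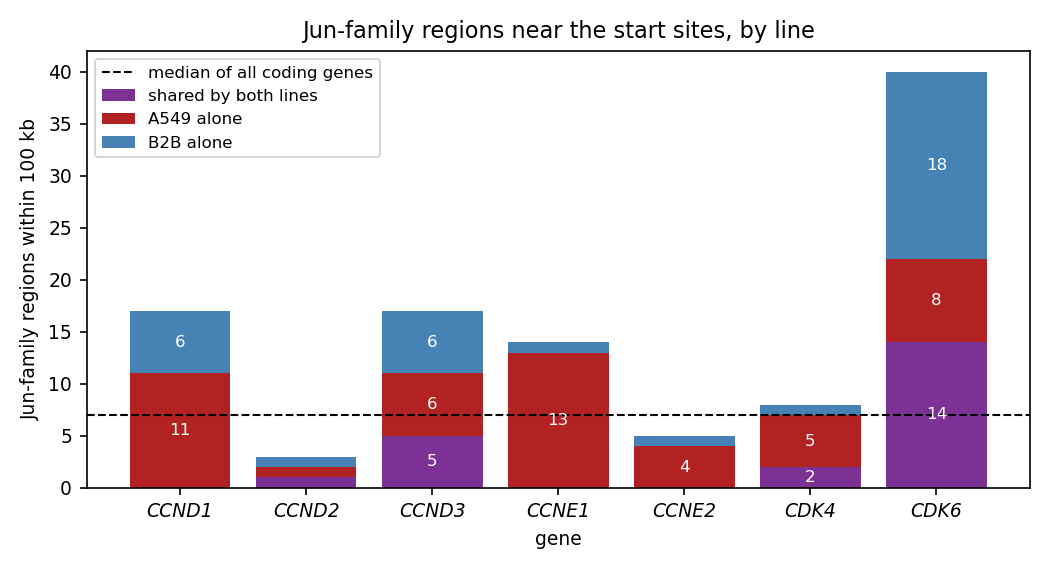
Number of Jun-family regions within 100 kb of the start sites of each gene, stacked by class (purple shared, red A549 alone, blue B2B alone), with the median over all coding genes as a dashed line at 7. CDK6 has 40 regions, and CCND1 and CCNE1 have none that both lines share.

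The strongest region near CCND1 was called in A549 alone, at chr11:69654797-69655222, 13857 bp downstream of the canonical start in an intron of LTO1, a gene next to CCND1. JunB had a fold enrichment of 17.4 there, Jun 25.2 and JunD 7.47, and the Jun and JunB summits held 73 and 79 reads. The region overlapped pol II, H3K4me3, Med1 and H3K27ac peaks of A549 and no peak of these marks, CTCF or Rad21 in B2B. A further group of 4 A549 regions lay between 46956 and 50529 bp downstream, with no peak of the other targets in either line. The strongest B2B-alone region, at chr11:69744499-69744810 and 103512 bp downstream of the canonical start, had a Jun fold enrichment of 19.4 and overlapped Med1 and CTCF peaks of B2B.

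The strongest shared region of all 7 genes lay in an intron of CDK6 at chr7:92752002-92752973, 84138 bp downstream of the canonical start. All 3 proteins were called there in both lines. Jun had fold enrichments of 51.1 in A549 and 40.8 in B2B, JunB of 25.1 and 10.2, and JunD of 7.85 and 7.58. The Jun summits held 110 reads in A549 and 100 in B2B, and the summits of the 6 lists lay between 92752435 and 92752479. The same 6 lists had peaks at chr7:92763578-92764028 and at chr7:92766398-92767089, also in the intron, where Jun reached 43.0 in A549 and 22.0 in B2B at the latter. The first overlapped pol II of B2B and H3K4me3 of A549, the second CTCF of B2B, and the third pol II of both lines and H3K4me3 of A549. None of the 3 overlapped a Med1 or H3K27ac peak in either line.

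Of the regions near CDK6 in B2B alone, the strongest lay in an exon of the antisense gene CDK6-AS1 at chr7:92916635-92917189, where Jun had a fold enrichment of 23.4, JunB 6.45 and JunD 6.54. It overlapped pol II, Med1, CTCF and Rad21 peaks of B2B and no peak of A549. At least 2 proteins were found at 2 of the 18 B2B-alone regions near CDK6 (11.1%), beside 9.62% of all B2B-alone regions. Counting only regions with at least 2 proteins in 1 line, which was chosen once the data had been seen, left 11 shared, 3 A549-alone and 2 B2B-alone regions near CDK6. Over the genome, 70.2% of shared and 38.1% of A549-alone regions had at least 2 proteins in 1 line. Lists held to equal length gave 13 shared, 7 A549-alone and 11 B2B-alone regions there.

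At CCND3, CDK4 and CCNE1 the strongest region lay close to a start of a neighbouring gene. CCND3 shared it between the lines, 82 bp from a start of MED20, with Jun fold enrichments of 21.7 in A549 and 27.7 in B2B. CDK4 also shared it, 416 bp from a start of TSPAN31, with Jun fold enrichments of 34.2 and 16.4. The strongest CCNE1 region, in A549 alone, lay 142 bp from a start of C19orf12, with JunB at 23.2, Jun at 20.3 and JunD at 7.54. Closer to CCNE1, 3 A549-alone regions lay between 32603 and 33731 bp downstream, with JunB fold enrichments of 5.05 to 7.11, and all overlapped pol II and H3K4me3 peaks of A549, and H3K4me3 or H3K27ac peaks of B2B.

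The strongest regions of the remaining classes carried 1 or 2 proteins, apart from 1 at CDK4. At CCND3, the A549-alone region at chr6:41967109-41967877, in an intron of the gene, had JunB at 12.1 and Jun at 15.1 and overlapped pol II, H3K4me3 and Med1 peaks of A549. The B2B-alone region at chr6:41878016-41878645 had Jun at 28.8 and overlapped a pol II peak of B2B. At CDK6, the A549-alone region at chr7:92750429-92750780 had JunB at 6.53 and Jun at 14 and overlapped no peak of the other targets. At CDK4, the A549-alone region lay 3 bp from a start of TSFM, with JunB at 6.98, Jun at 11.6 and JunD at 6.60, and the B2B-alone region had Jun at 6.44.

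CCND2 and CCNE2 had the fewest regions, 3 and 5. The shared CCND2 region, at chr12:4277061-4277259, had Jun at 5.63 in A549 and 4.82 in B2B. Its A549-alone region lay 74 bp from a start of TIGAR, with JunB at 5.52 and Jun at 6.68, and its B2B-alone region had Jun at 9.24. The A549-alone CCNE2 region had JunB at 5.21 and Jun at 6.78, and the B2B-alone one had Jun at 16.2. The B2B-alone region of CCNE1, at -12979 bp, had Jun at 8.86.

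**Figure D5:**
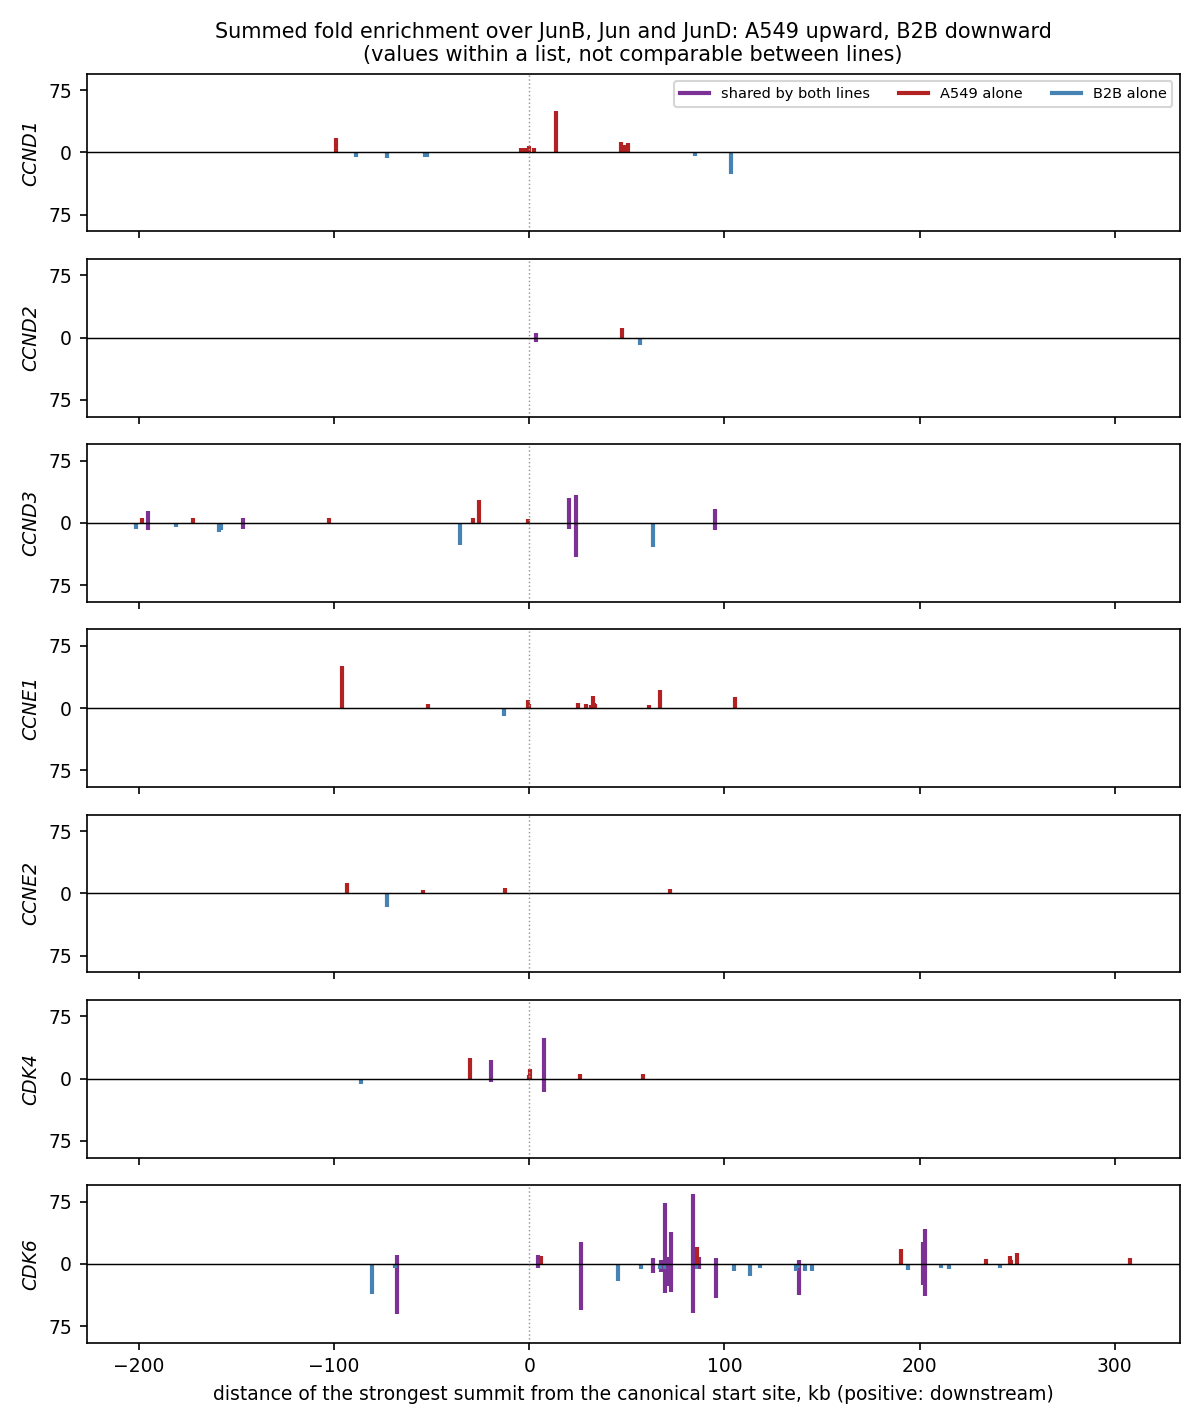
Jun-family regions within 100 kb of any start site of each gene, by the distance in kb of the strongest summit from the canonical start site (x axis) and by the fold enrichment summed over JunB, Jun and JunD (y axis, A549 upward and B2B downward, within-list values), coloured by class. CDK6 shows a cluster of shared regions downstream of its start, and CCND1 shows 10 A549-alone and 0 B2B-alone regions within 50 kb of its start sites. No share over coding genes was taken at 50 kb.

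The A549-alone regions overlapped pol II and H3K4me3 peaks more often in A549 than in B2B. Of the 48 regions alone in A549, 29 (60.4%) overlapped an A549 pol II peak and 30 (62.5%) an A549 H3K4me3 peak, where 46.2% and 37.1% of all A549-alone regions of the genome did. With the B2B lists, 22.9% of the 48 overlapped a pol II peak and 27.1% an H3K4me3 peak, beside 20.3% and 20.0% of all A549-alone regions. The order of the lines was thus the same over the genome. Of the 34 regions alone in B2B, 5 (14.7%) overlapped a B2B pol II peak and 7 of 33 (21.2%) a B2B Med1 peak, where 12.5% and 8.85% of all B2B-alone regions did. CTCF peaks of B2B lay on 11 of 22 shared regions (50%), where 39.7% of all shared regions had one. These shares rest on few regions, and regions of 1 gene are not independent of each other.

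The AP-1 motif, TGAGTCA or TGACTCA on either strand, was searched within 50 bp of the summit of the strongest Jun-family peak. It was found at 32 of the 104 regions, 30.8% (Wilson 95% interval 22.7 to 40.2, counting error only), and at 35.1% of all 72011 regions. In windows 2 kb to each side it was found in 1.92% near the 7 genes and in 1.60% over the genome. Shared regions near the 7 genes held it in 11 of 22 cases, A549-alone regions in 12 of 48 and B2B-alone regions in 9 of 34, or 50%, 25% and 26.5%. Over the genome these shares were 51.5%, 29.7% and 28.7%, each within the interval of the members.

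By gene, 8 of 17 regions near CCND3, 13 of 40 near CDK6, 5 of 14 near CCNE1, 4 of 17 near CCND1, 1 of 8 near CDK4, 1 of 5 near CCNE2 and 0 of 3 near CCND2 held the motif. The strongest A549-alone region of CCND1 did not hold it, nor did the TSPAN31 region of CDK4. The strongest region of a class is shown in 4 cases where it held the motif, as 101 bases of the plus strand of hg38 centred on the summit, with the motif in capitals. The windows are chr7:92752385-92752485 (CDK6, shared), chr7:92750515-92750615 (CDK6, A549 alone), chr6:41917646-41917746 (CCND3, shared) and chr11:69744618-69744718 (CCND1, B2B alone).
CDK6 shared: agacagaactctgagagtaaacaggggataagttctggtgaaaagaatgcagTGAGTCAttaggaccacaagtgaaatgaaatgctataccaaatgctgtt
CDK6 A549 alone: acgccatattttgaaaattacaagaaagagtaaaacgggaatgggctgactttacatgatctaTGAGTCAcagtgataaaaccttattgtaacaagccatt
CCND3 shared: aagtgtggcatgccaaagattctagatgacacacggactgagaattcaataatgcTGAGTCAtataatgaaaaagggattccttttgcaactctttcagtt
CCND1 B2B alone: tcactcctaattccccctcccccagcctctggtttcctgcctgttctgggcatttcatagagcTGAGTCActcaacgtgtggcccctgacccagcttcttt
All 4 held 1 copy, and its centre lay 5 bp from the summit in the shared CDK6 region, 8 bp in the CCND3 region and 16 bp in the others.

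The other genes of the G1/S pathway, 21 in all, were read the same way. Pol II peaks lay at 16 of 19 scored genes in A549 (69.6% of coding genes) and 18 of 21 in B2B (51.0%). H3K4me3 peaks lay at 19 of 21 in each line (73.8% in A549 and 62.8% in B2B). H3K27ac peaks lay at 13 of 15 in A549 (73.5%) and 20 of 21 in B2B (65.0%). JunB peaks lay at 6 of 21 in A549 (31.1% of coding genes) and 1 of 21 in B2B (5.28%), Jun peaks at 8 (38.2%) and 7 (25.4%), and JunD peaks at 4 (17.8%) and 1 (3.22%). The Jun-family counts of A549 lay near those shares. CDKN1A, the gene of the p21 inhibitor, had JunB and Jun peaks in both lines and JunD in A549. CDK2, the partner of cyclin E, carried JunB, Jun and JunD in A549 and Jun in B2B. Med1 peaks lay at 10 of 16 scored genes in A549 (54.7% of coding genes) and 15 of 16 in B2B (61.1%). CDKN2A and CDKN2B were among the genes without a Med1 peak in A549.

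Of the genes of CDK4 and CDK6 inhibitors, CDKN2A and CDKN2B had no promoter peak of any A549 list, while B2B had pol II, H3K4me3, Med1 and H3K27ac peaks at both. No A549 peak lay inside CDKN2A, and the nearest lay 155 kb before and 159 kb after it, whereas 48 peaks of the B2B lists lay inside it. The other inhibitors of that family, CDKN2C and CDKN2D, had pol II and H3K4me3 peaks in both lines. The part of a deletion in A549 was not tested.

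The coding gene whose covered base pairs were most alike over the lists, among those over 1 Mb away, was NR4A1 for CCND1 (Pearson r = 0.983 over 16 lists), SOX2 for CCND2 (0.996), FAM86B2 for CCND3 (0.993), DYNLRB2 for CCNE1 (0.992 over 13 lists), PARD3B for CCNE2 (0.989), FLVCR1 for CDK4 (0.991) and THOC7 for CDK6 (0.989). Such values were common, since the number of coding genes with r of at least 0.9 ranged from 194 for CCND1 to 3590 for CDK4. The points share the differences in length between lists. CCND1 thus had the fewest genes with a pattern like its own.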

How the data were processed

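ChIP-seq peak lists of 16 groups (32 of 36 samples; the 4 input samples had no list) were used. Per the study's methods and the submitters' processing notes, the authors aligned reads to hg38 with Bowtie2 2.4.4, took out duplicates by in-house code, and pooled the replicates of each target. SAMtools 1.13 served to bring the pooled reads of both lines to CPM, and MACS2 2.2.7.1 to call peaks. How that scaling acted on the pileup, and which control was used, are not given in the sources used here. The deposited score of a peak is a display value and was not used further. The fold enrichment is the deposited ratio of summit pileup to local background, and the authors gave significance as −log10 of a p-value and of a q-value. Total read depth is not given in the sources used here.

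Lists were read in Python 3.11.15 with NumPy 2.4.6 and SciPy 1.17.1, with start sites from GENCODE 44. Pileup and background were solved from fold enrichment and −log10 p under the Poisson model of the caller and were tested on simulated data. Intervals had to overlap by 1 bp. No test between lines was made, as each group was 1 list. Named were all 7 genes, per gene the region of each class with the highest summed fold enrichment, and the 1 gene most alike. The group of 4 regions near CCND1, the 3 regions near CCNE1, the 2 further CDK6 regions bound in all 6 Jun-family lists and the E-box were chosen after their values were seen. Members, gene lists and rules were chosen with earlier results of these data known. Alternatives were 1 kb and canonical starts, −log10 q of at least 5, lists of equal length, 50 and 200 kb, 50% reciprocal overlap, a motif window of 100 bp and the CRE motif. Figures were drawn with Matplotlib 3.10.9. The sequence of 1 further motif window is not reported here.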

Additional observations from a re-analysis of the deposited data

How the results depend on the processing

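Of 91 alternative values of the counts and shares over the 7 genes, 78 stayed within 1.5 times of the value reported or inside its interval, and 13 did not. With lists of equal length, 0 of 7 genes kept a JunB promoter peak in A549. With peaks within 1 kb, 2 genes had a Jun peak in A549, 0 in B2B, and 1 had a JunD peak in A549. With canonical starts the Jun counts were 2 in A549 and 0 in B2B, the CTCF count was 2, and B2B-alone regions numbered 18. At a −log10 q of at least 5, 1 gene had a JunD peak in A549. B2B-alone regions numbered 19 within 50 kb and 54 within 200 kb. Regions with at least 2 proteins in 1 line, an alternative chosen after the data were examined, numbered 15 in A549 alone and 4 in B2B alone. These were 31.2% and 11.8% of their classes, beside 38.1% and 9.62% over the genome. The larger share kept in A549 alone was thus not particular to the 7 genes. Under the same alternative, the excess of A549-alone over B2B-alone regions at CDK6 turned from -10 to 1. Of 49 alternative values of that excess per gene, 27 stayed within 1.5 times, 21 moved and 1 reversed. Each of these alternatives changes which peaks or distances enter a count, and no other cause was tested. No share over coding genes was taken for any of them. No paired analysis was possible because the replicates were merged before peaks were called. Leaving out a replicate was not possible for the same reason. The number of reads behind a place without a peak is unknown, so a missing peak says only that none was called.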
